A study of Mus musculus with 13 samples.

Results

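The mitochondrial respiratory chain is built from proteins of both genomes of the cell. The genes described here are the nuclear ones whose symbol marks them as a subunit, or as an assembly factor with a subunit-like symbol, of complexes I to V. They were found by symbol among the 55536 genes of the files: the beginning of the symbol had to be Nduf with a, b, c, s or v, Sdh with a to d, Uqcr, Cox4 to Cox8, or Atp5. Of 111 matching genes, 97 are described. Another 9 were left out for a -ps suffix, 8 of them annotated as processed pseudogenes, and 5 had fewer than 10 counts in all. The members nearest that limit on the inside were Cox7b2 with 63 counts and Cox8b with 75 counts summed over the libraries, and the highest on the outside without the suffix was Ndufs6b with 1. Complex I has 39 of the 97 genes, complex II 4, complex III 8, complex IV 17 and complex V 17, and 12 are assembly factors (Ndufaf and Sdhaf). The ninth gene with the suffix, Ndufb1-ps, is annotated as a long non-coding RNA of a bidirectional promoter, had 18302 counts in all and may be the mouse gene of the Ndufb1 subunit, which the files do not settle. Of the 97, 96 are annotated as protein-coding; the other, Ndufb4c, is annotated as a processed pseudogene and was kept because its symbol meets the rule.

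Gene expression was measured by RNA sequencing of total RNA from the frontal cortex of 13 mouse samples. The sample titles call it mRNAseq. There were 3 libraries of 5XFAD mice at 11 months of age, 3 of 5XFAD mice at 6 months, 3 of wild-type B6SJLF1/J mice at 11 months and 4 of wild-type B6SJLF1/J mice at 6 months. 5XFAD mice carry mutated human transgenes under Thy1 regulatory sequence, which is active in neurons, so the line models amyloid deposition driven from neurons. The labels do not say that each library is a separate animal, and the p-values then rest on a spread between libraries that may be technical in part. Thy1 had 2155 to 3250 CPM (counts scaled to a common library total) in the 6 5XFAD libraries, against 543 to 783 CPM in the 7 wild-type libraries, as the labels say. Libraries held 23618289 to 26615772 counts. The excitatory neuron marker Slc17a7 had 655 to 1481 CPM over the 13 libraries. The sexes, read from sex-linked genes, were not balanced: the libraries of 5XFAD at 11 months were from 2 females and 1 male, those of 5XFAD at 6 months from 3 males, those of wild type at 11 months from 1 female and 2 males and those of wild type at 6 months from 2 females and 2 males.

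Complex I (NADH dehydrogenase), complex II (succinate dehydrogenase), complex III (cytochrome bc1) and complex IV (cytochrome c oxidase) pass electrons from fuel molecules to oxygen, and complex V (ATP synthase) uses the proton gradient that complexes I, III and IV build to make ATP. Neurons spend much of this ATP on ion pumping and synaptic transmission. Complex II is encoded wholly in the nucleus, and the other complexes also hold subunits encoded by mitochondrial DNA.

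Per transcript length, the genes of complexes III to V were the most abundant members and the assembly factors the least. The median of the mean TPM (the authors' unit, scaled for transcript length and library total) was 490 for complex V, 420 for complex III, 383 for complex IV, 275 for complex I, 132 for complex II and 34.2 for the assembly factors. Levels also varied within a complex: complex IV ran from 0.842 TPM for Cox7b2, a gene known for expression in testis, to 2215 TPM for Cox8a. After Cox8a the highest mean TPM in complex IV were those of Cox6a1 with 1786 and Cox4i1 with 1667. In complex V the highest was Atp5b, the catalytic beta subunit, with 1633 TPM.

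The 97 genes together held less of the RNA at 11 months than at 6 months in both genotypes, with 1 exception among the libraries. Their TPM summed to 32224, 30295 and 30645 in 5XFAD mice at 11 months, against 38408, 37002 and 36668 in 5XFAD mice at 6 months, and the groups did not overlap. In wild-type mice they summed to 38248, 28467 and 31128 TPM at 11 months, against 39521, 37277, 40034 and 39974 TPM at 6 months. Replicate 1 of the wild type at 11 months thus lay among the 6-month libraries and the other 2 libraries lay below all of them. In bulk tissue, fewer cells of a type and less RNA per cell cannot be told apart.

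**Figure D1:**
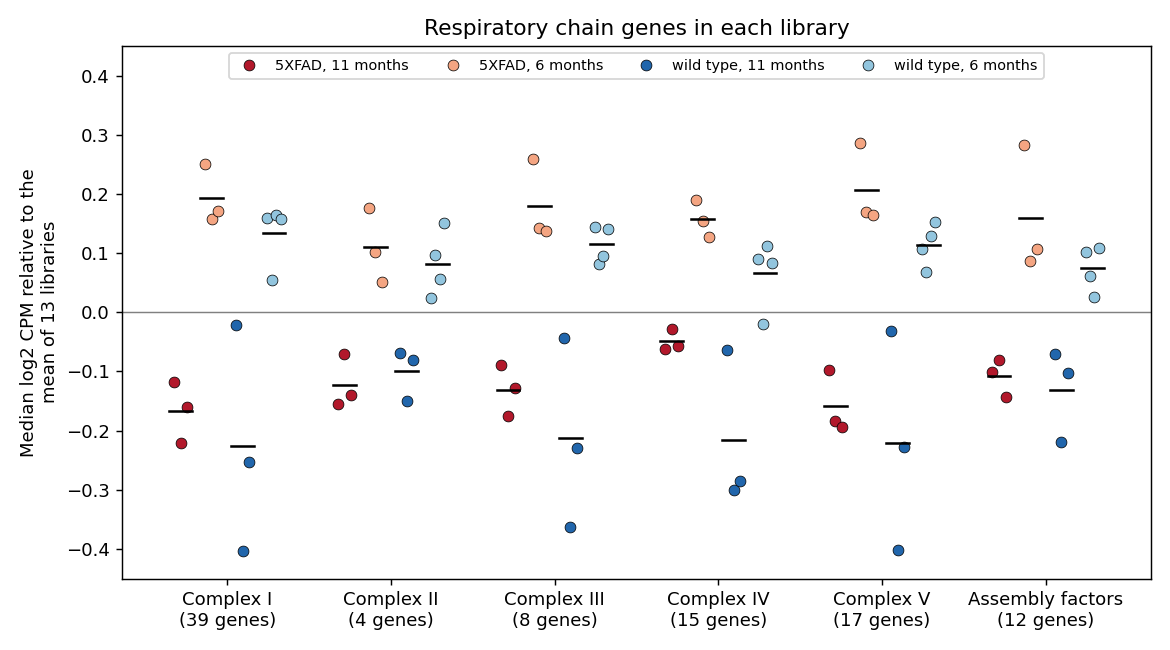
Median level of the genes of each complex in each library, as log2 CPM relative to the mean of the 13 libraries (vertical axis), by complex and assembly factors (horizontal axis); points are libraries, bars are group means, and Cox7b2 and Cox8b are left out for low counts. In complexes I, II, III and V and the assembly factors all 11-month libraries lie below 0 and all 6-month libraries above it. In complex IV wild-type replicate 2 at 6 months lies at -0.020. In complexes I and V the highest of the wild type at 11 months, replicate 1, lies just under 0.

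Between 11 and 6 months in 5XFAD mice, 36 of the 95 tested members were lower at 11 months and 0 were higher (edgeR quasi-likelihood test, adjusted p under 0.05). Among all 17483 genes tested 2.39% were called lower and 4.84% higher. The median log2 fold change of the members was -0.33, against -0.00051 for all genes, and 91 of the 95 values were negative. In 78 members the 3 libraries at 11 months all lay below the 3 at 6 months, against 17.3% of all genes. The call count depends on the setting: it was 63 when only 5XFAD libraries were fitted, 13 with the length trend of each library taken out, 7 on log2 TPM and 0 without replicate 3 of 5XFAD at 11 months, where the median was still negative. It was 13 and 11 without replicates 1 and 2 of 5XFAD at 11 months, and 4, 7 and 16 without replicates 1, 2 and 3 of 5XFAD at 6 months. Over the leave-outs of single libraries the median ran from -0.34 to -0.29.

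Between 11 and 6 months in wild-type mice, 24 of the 95 members were lower at 11 months and 0 were higher by the same test. Among all genes 1.29% were called lower and 2.42% higher. The members' median log2 fold change was -0.31, against 0.015 for all genes, and 93 values were negative. In 59 members the 3 libraries at 11 months all lay below the 4 at 6 months, against 7.96% of all genes. The call count depends on the setting: DESeq2 called 59 members, 6 were called with sex as a term, and 0 when only wild-type libraries were fitted, on log2 TPM, with length offsets, or without replicate 2 at 11 months or replicate 4 at 6 months. Without replicate 1 at 11 months, 68 members were called and the median was -0.40, and without any 1 of the other 10 libraries 1 to 9 were called.

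The 2 age comparisons share no library, but both come from the single model of 13 libraries with a shared estimate of the spread. Their calls are therefore not independent, and the overlap over all genes was not counted. Of the 36 members called in 5XFAD mice and the 24 called in wild-type mice, 16 were called in both, which is 44.4% of the first and 66.7% of the second list, and 90 of 95 members had a negative value in both. The difference between the 2 age changes was itself tested: it passed for 0 of 95 members by edgeR, against 1 of all 17483 genes (0.00572%). There 0 members had an unadjusted p under 0.05 by edgeR, against 692 of all genes.

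**Figure D2:**
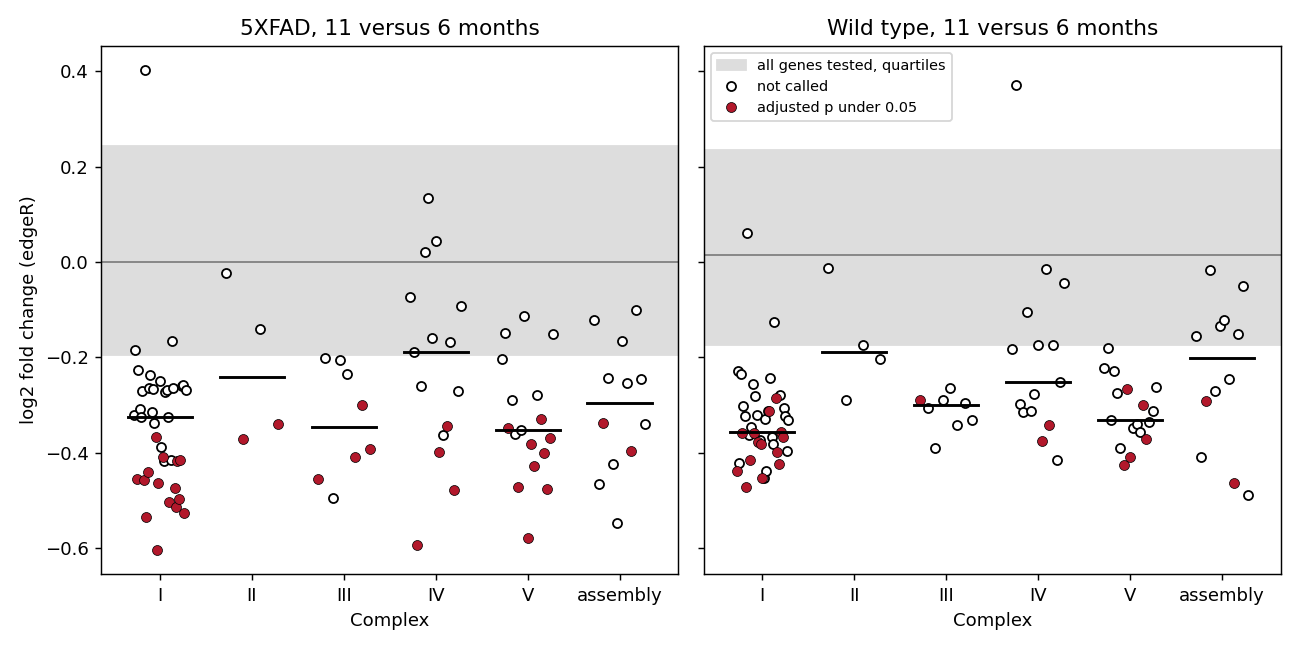
log2 fold change between 11 and 6 months (vertical axis, edgeR) of each tested member, by complex (horizontal axis), in 5XFAD mice on the left and wild-type mice on the right; filled points passed an adjusted p of 0.05, bars are medians, and the grey band spans the quartiles of all genes tested. Nearly all members lie below 0 in both panels. The complex IV medians of -0.19 in 5XFAD and -0.25 in wild type are nearer to 0 than those of complex I, -0.33 and -0.36. So are the complex II medians, -0.24 in 5XFAD and -0.19 in wild type.

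In complex I nearly all subunits had a negative value with age. In 5XFAD mice 15 of 39 genes fell, with a median log2 fold change of -0.33, and in wild-type mice 14 fell, with a median of -0.36. Among all genes 2.39% were called lower in 5XFAD and 1.29% in wild type. All 11-month libraries lay below all 6-month ones in 17.3% and 7.96% of all genes, a share that applies to the single genes below. All 7 core subunits of nuclear origin, which carry the flavin and iron-sulfur clusters or line the path to quinone, had negative values in both comparisons, with medians of -0.26 in 5XFAD and -0.32 in wild type, and 3 were called in each. The other 30 tested genes of the complex, left without Ndufa4 and Ndufa4l2, were also all negative in both; they are accessory subunits and the processed pseudogene Ndufb4c, with medians of -0.33 and -0.36.

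Ndufs6, an accessory subunit of the matrix arm, had 36.1, 34.0 and 35.8 CPM in 5XFAD mice at 11 months, against 48.6, 52.0 and 49.0 CPM at 6 months. In wild-type mice it had 41.4, 33.2 and 34.7 CPM at 11 months, against 48.9, 44.6, 48.5 and 44.6 CPM at 6 months. The ages did not overlap in either genotype. The log2 fold change was -0.50 ± 0.09 (SE, edgeR adjusted p = 0.00946) in 5XFAD and -0.36 ± 0.08 (edgeR adjusted p = 0.0386) in wild type. The gene lies on chromosome 13 from 73319838 to 73328542 (GRCm38, minus strand), and Mrpl36 overlaps it on the other strand.

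Ndufa4, which was named as a complex I subunit and is now placed in complex IV, had 172, 167 and 178 CPM in 5XFAD mice at 11 months and 241, 244 and 224 CPM at 6 months. In wild-type mice it had 182, 139 and 167 CPM at 11 months and 217, 221, 227 and 238 CPM at 6 months. It fell by 0.46 ± 0.10 on the log2 scale in 5XFAD (edgeR adjusted p = 0.0153) and by 0.47 ± 0.09 in wild type (edgeR adjusted p = 0.024), the smallest p of any member there. Its rare paralog Ndufa4l2, known as a gene induced by low oxygen, was the only member of the 95 with a positive value in both age comparisons. It had 2.14, 2.30 and 2.56 CPM in 5XFAD at 11 months, against 1.71, 1.48 and 2.10 CPM at 6 months, without overlap, as in 18.4% of all genes in that direction. Its log2 fold changes were 0.40 ± 0.25 in 5XFAD (edgeR adjusted p = 0.343) and 0.061 ± 0.233 in wild type (edgeR adjusted p = 0.903), and neither passed.

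Ndufb2, an accessory subunit of the membrane arm, had the largest fold change of the complex in 5XFAD mice. It had 57.2, 52.5 and 52.9 CPM at 11 months, against 90.9, 78.6 and 77.8 CPM at 6 months, a log2 fold change of -0.60 ± 0.11 (edgeR adjusted p = 0.0113). In wild-type mice its ages overlapped, with 52.5 to 73.2 CPM at 11 months against 71.7 to 84.6 CPM at 6 months, and its log2 fold change of -0.37 ± 0.11 did not pass (edgeR adjusted p = 0.0629). Reads of Ndufb2 may be shared with Braf, which overlaps it on the other strand, since the strand setting of the counting is not given in the sources used here. Ndufs3 and Ndufs7, chosen after their values were seen and both core subunits, fell in both genotypes: Ndufs3 by 0.47 ± 0.11 in 5XFAD and 0.40 ± 0.10 in wild type, and Ndufs7 by 0.42 ± 0.09 and 0.37 ± 0.09 on the log2 scale (edgeR, all adjusted p under 0.05). The counts of Ndufs3 were not whole in 13 libraries, so its reads may be shared with near copies.

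Within complex II the values of Sdha and Sdhb lay apart. Sdha, the flavoprotein that oxidises succinate, had 252, 319 and 272 CPM in 5XFAD mice at 11 months, against 284, 292 and 280.0 CPM at 6 months. In wild-type mice it had 281, 286 and 319 CPM at 11 months, against 266, 315, 293 and 319 CPM at 6 months. The ages overlapped in both genotypes, and the log2 fold changes were -0.02 ± 0.10 in 5XFAD and -0.01 ± 0.10 in wild type. Sdhb, its iron-sulfur partner, had 144, 136 and 139 CPM in 5XFAD at 11 months, against 175, 174 and 192 CPM at 6 months. In wild type Sdhb had 158, 125 and 131 CPM at 11 months, against 168, 165, 164 and 177 CPM at 6 months. The ages did not overlap in either genotype, and the log2 fold change was -0.37 ± 0.09 in 5XFAD (edgeR adjusted p = 0.0292) and -0.29 ± 0.09 in wild type (edgeR adjusted p = 0.0675). Sdhd, a membrane anchor, fell by 0.34 ± 0.08 in 5XFAD (edgeR adjusted p = 0.0253) and had a log2 fold change of -0.20 ± 0.08 in wild type that did not pass. The other anchor, Sdhc, had log2 fold changes of -0.14 ± 0.08 and -0.17 ± 0.07 that did not pass. Sdha has the longest effective length of the 4, 2510 bases against 904 for Sdhb, 994 for Sdhd and 1795 for Sdhc.

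In complex III 4 of 8 genes fell in 5XFAD mice and 1 fell in wild-type mice, against 2.39% and 1.29% of all genes called lower. The medians were -0.35 and -0.30. Uqcr10, a small subunit beside the cytochrome c1 head, had the smallest p of all members in 5XFAD. It had 90.7, 88.9 and 88.2 CPM at 11 months, against 126, 122 and 119.6 CPM at 6 months, and its log2 fold change was -0.45 ± 0.08 (edgeR adjusted p = 0.00761). In wild-type mice Uqcr10 had 98.4, 81.2 and 85.9 CPM at 11 months, against 108, 108, 108 and 109 CPM at 6 months, and fell by 0.29 ± 0.07 (edgeR adjusted p = 0.0443). Its ages did not overlap in either genotype. Over 21 alternatives the log2 fold change of Uqcr10 ran from -0.50 to -0.21 in 5XFAD, and 19 of them called it. In wild type it ran from -0.37 to -0.088, and 3 of 21 called it. With length offsets Uqcr10 was not called in either genotype. Uqcrfs1, the Rieske iron-sulfur protein, fell by 0.41 ± 0.10 in 5XFAD (edgeR adjusted p = 0.0269) and had a log2 fold change of -0.34 ± 0.09 in wild type (edgeR adjusted p = 0.0541).

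Complex IV had the median nearest to 0 in 5XFAD mice and a wide spread. Its median log2 fold change was -0.19 there, with quartiles of -0.35 and -0.08 and 4 of 15 tested genes lower. In wild-type mice it was -0.25, with 2 lower. There the medians of complex II, -0.19, and of the assembly factors, -0.20, were nearer to 0. Among all genes 2.39% were called lower in 5XFAD and 1.29% in wild type. Cox5a, a structural subunit on the matrix side, had 89.3, 88.1 and 82.4 CPM in 5XFAD at 11 months, against 132, 134 and 126 CPM at 6 months. In wild-type mice Cox5a had 126, 91.6 and 116 CPM at 11 months, against 128, 132, 147 and 138 CPM at 6 months. The ages did not overlap in either genotype. The log2 fold change was -0.59 ± 0.10 in 5XFAD (edgeR adjusted p = 0.00924) and -0.30 ± 0.10 in wild type (edgeR adjusted p = 0.0918).

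Cox7a2, the common form of a subunit at the complex surface, fell by 0.34 ± 0.08 in both genotypes (edgeR adjusted p = 0.0256 in 5XFAD and 0.0355 in wild type). Cox6c fell by 0.40 ± 0.10 in 5XFAD and by 0.38 ± 0.09 in wild type (edgeR adjusted p = 0.0291 and 0.0426), and its counts were not whole in 13 libraries, so its reads may be shared with near copies. Cox7b had log2 fold changes of -0.48 ± 0.12 in 5XFAD (edgeR adjusted p = 0.0279) and -0.42 ± 0.11 in wild type (edgeR adjusted p = 0.0513), on either side of the threshold.

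For the 3 most abundant genes of the complex, grouped after their values were seen, no age change passed. Cox6a1 had 457, 457 and 518 CPM in 5XFAD at 11 months, against 436, 481 and 492 CPM at 6 months, a log2 fold change of 0.02 ± 0.11. In wild type Cox6a1 had 418, 466 and 349 CPM at 11 months, against 452, 389, 475 and 453 CPM at 6 months, a log2 fold change of -0.10 ± 0.11. Cox8a had log2 fold changes of -0.09 ± 0.12 and -0.04 ± 0.11 in 5XFAD and wild type, and Cox4i1, whose product binds ATP and adjusts the enzyme, of -0.07 ± 0.08 and -0.18 ± 0.08. The ages overlapped for each of the 3 genes in both genotypes. Cox4i1 overlaps Emc8 on the other strand and Gm20388 on its own.

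In complex V 9 of 17 genes fell in 5XFAD mice and 5 fell in wild-type mice, against 2.39% and 1.29% of all genes called lower. The medians were -0.35 and -0.33. The 3 genes Atp5g1, Atp5g2 and Atp5g3 encode the same mature c subunit of the rotor ring and differ in their import sequence. Atp5g3, the one with the highest mean TPM in both 6-month groups, had 172, 157 and 160.4 CPM in 5XFAD at 11 months, against 248, 243 and 240.1 CPM at 6 months. In wild-type mice Atp5g3 had 203, 149 and 199 CPM at 11 months, against 243, 233, 251 and 249.9 CPM at 6 months. The ages did not overlap in either genotype, and Atp5g3 fell by 0.58 ± 0.10 in 5XFAD (edgeR adjusted p = 0.00987) and by 0.41 ± 0.10 in wild type (edgeR adjusted p = 0.0406). Atp5g1 had log2 fold changes of -0.35 ± 0.11 in 5XFAD (edgeR adjusted p = 0.0598) and -0.43 ± 0.10 in wild type (edgeR adjusted p = 0.0401). Atp5g2 had -0.11 ± 0.07 in 5XFAD (edgeR adjusted p = 0.325) and -0.27 ± 0.06 in wild type (edgeR adjusted p = 0.0405). The counts of Atp5g1 were not whole in 13 libraries and those of Atp5g2 in 12, so their reads may be shared with near copies.

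Atp5b, the catalytic beta subunit, gave different values on the 2 scales. In CPM it had 706, 809 and 696 in 5XFAD at 11 months, against 819, 869 and 763 at 6 months, and its log2 fold change was -0.15 ± 0.10 (edgeR adjusted p = 0.401). On the log2(TPM + 1) scale the same comparison gave -0.46, and wild type gave -0.38 against -0.18 in counts. The deposited effective length of Atp5b, a mean over its transcripts weighted by their estimated shares, was 740.2 ± 95.0 bases in 5XFAD at 11 months and 584 ± 12.9 bases at 6 months (SD, n = 3 each), and 799.9 ± 119.5 bases in wild type at 11 months (SD, n = 3) and 676 ± 40.6 bases at 6 months (SD, n = 4).

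In each genotype 2 of the 12 assembly factors fell, Ndufaf3 and Sdhaf1 in both. Among all genes 2.39% were called lower in 5XFAD and 1.29% in wild type. The medians of the assembly factors were -0.30 in 5XFAD and -0.20 in wild type. Ndufaf3, a factor of early complex I assembly, fell by 0.34 ± 0.07 in 5XFAD (edgeR adjusted p = 0.0166) and by 0.29 ± 0.07 in wild type (edgeR adjusted p = 0.0381). Sdhaf1, which helps to put iron-sulfur clusters into Sdhb, had 18.1, 18.4 and 14.9 CPM in 5XFAD at 11 months, against 22.1, 21.8 and 23.9 CPM at 6 months. In wild-type mice Sdhaf1 had 16.1, 14.3 and 14.1 CPM at 11 months, against 20.0, 20.0, 22.4 and 19.3 CPM at 6 months. The ages did not overlap in either genotype, and Sdhaf1 fell by 0.40 ± 0.10 in 5XFAD and by 0.46 ± 0.10 in wild type (edgeR adjusted p = 0.037 and 0.0302).

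**Figure D3:**
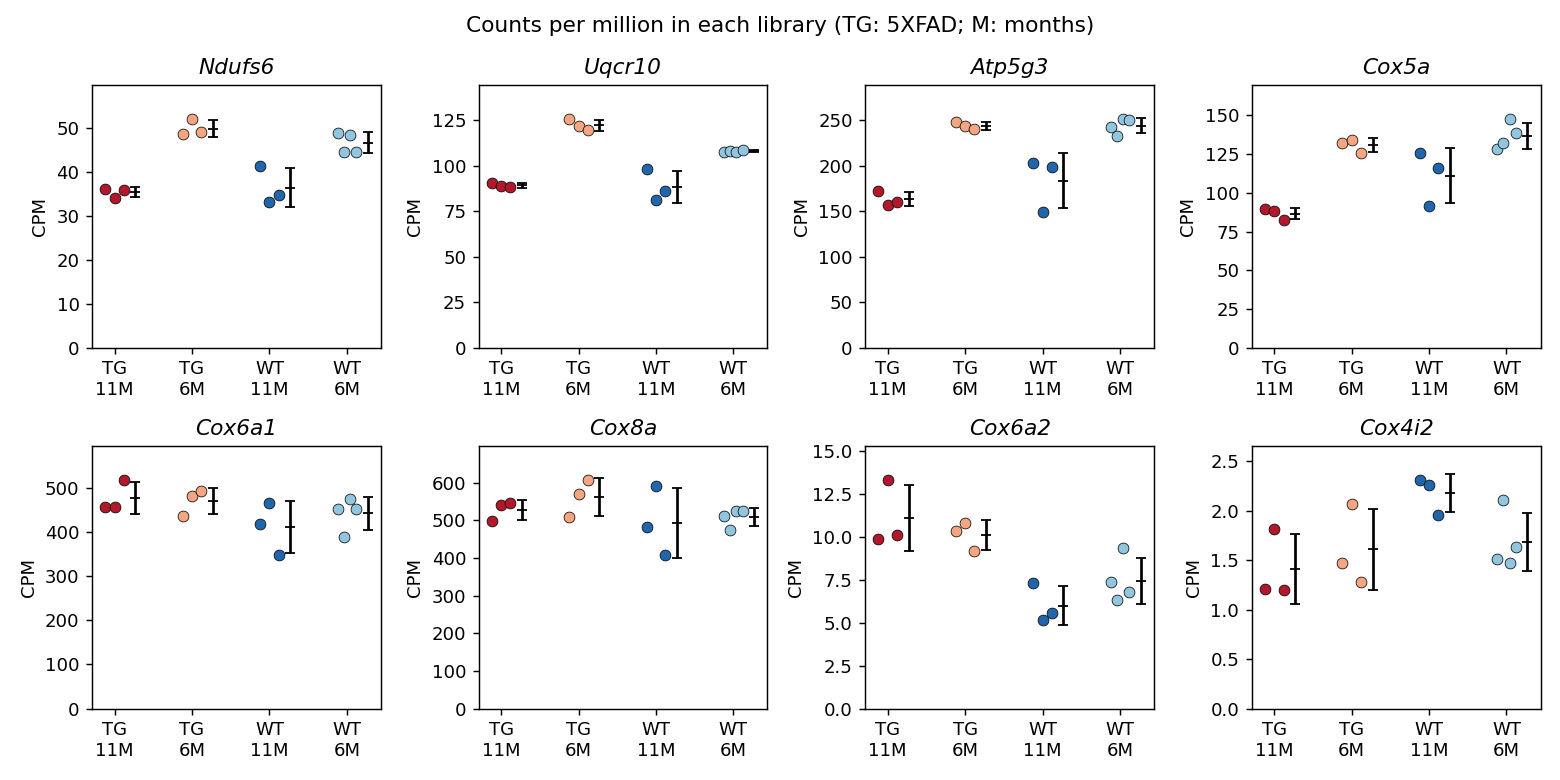
CPM in each library (vertical axes, starting at 0) of 8 members in the 4 groups (horizontal axes; TG is 5XFAD, WT wild type, M months); points are libraries and the marks beside them are the mean and SD. Ndufs6, Uqcr10, Atp5g3 and Cox5a are lower at 11 months in both genotypes, Cox6a1 and Cox8a overlap between ages, and Cox6a2 and Cox4i2 separate the genotypes at 11 months.

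The promoters of respiratory chain genes are known for sites of NRF1, of the ETS factor GABP (also called NRF2) and of YY1 and Sp1, factors that tie nuclear subunits to mitochondrial content. RefSeq promoter windows (build GRCm38.p6, 250 bases before to 50 after a transcription start) were found for 80 of the 97 members, in 85 windows. On either strand, NRF1 letters (GCGC, any base, then TGCGC) were in 25.9% of the member windows, against 4.60% of all 32851 windows, and GABP letters CCGGAAG in 24.7%, against 8.86%. YY1 letters AAGATGG were in 14.1% of member windows, against 6.34% of all, and Sp1 letters GGGCGG in 47.1%, against 35.7%. A match is a description of letters and not a measured binding site. The 250 bases before the start are shown for 4 members. Ndufs6, Sdhd and Uqcr10 are the members of their complexes with the smallest p with age in 5XFAD, and Cox6a1 is an abundant member that was not lower there. The members of smallest p in complexes IV and V, Cox5a and Atp5g3, are not shown. In the 250 bases before the start Cox5a holds Sp1 letters alone and Atp5g3 none of the 4 motifs. Capitals mark matches to the 4 motifs on either strand.
Ndufs6, chr13:73328483-73328732 (minus strand): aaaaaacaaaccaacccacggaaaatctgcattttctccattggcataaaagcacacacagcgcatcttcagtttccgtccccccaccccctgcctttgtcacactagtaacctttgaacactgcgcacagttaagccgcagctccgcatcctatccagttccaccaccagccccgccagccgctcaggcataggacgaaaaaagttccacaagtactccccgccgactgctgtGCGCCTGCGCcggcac
Sdhd, chr9:50603850-50604099 (minus strand): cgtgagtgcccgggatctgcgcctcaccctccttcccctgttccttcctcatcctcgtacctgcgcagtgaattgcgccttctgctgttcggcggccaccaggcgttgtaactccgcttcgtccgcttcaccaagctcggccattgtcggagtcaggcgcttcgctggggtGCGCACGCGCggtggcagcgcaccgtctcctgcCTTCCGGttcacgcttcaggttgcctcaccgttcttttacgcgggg
Uqcr10, chr11:4704345-4704594 (minus strand): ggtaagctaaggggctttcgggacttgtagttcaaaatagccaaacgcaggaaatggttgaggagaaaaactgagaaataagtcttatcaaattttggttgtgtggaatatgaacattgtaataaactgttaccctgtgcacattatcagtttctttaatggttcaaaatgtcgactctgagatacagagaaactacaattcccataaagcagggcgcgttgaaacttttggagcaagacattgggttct
Cox6a1, chr5:115348959-115349208 (minus strand): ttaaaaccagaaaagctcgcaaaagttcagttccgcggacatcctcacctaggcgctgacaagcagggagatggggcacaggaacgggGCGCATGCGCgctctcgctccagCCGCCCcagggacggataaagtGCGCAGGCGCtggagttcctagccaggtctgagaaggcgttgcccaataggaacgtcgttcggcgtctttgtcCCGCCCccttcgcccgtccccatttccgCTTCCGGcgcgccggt
Sdhd and Cox6a1 both hold NRF1 and GABP letters, Cox6a1 also Sp1 letters, Ndufs6 NRF1 letters and Uqcr10 none of the 4 motifs in this stretch.

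The members are short transcripts, and age changes in these libraries had a length trend over all genes. The median effective length was 488 bases over the 97 members, from 126 to 4029, against 2216 over all genes tested, and 81 of the 95 tested members were in the shortest of 5 equal length classes, which ended at 1141 bases. In that class the members' median log2 fold change was -0.34 in 5XFAD with age, against -0.16 for all genes of the class, and -0.32 in wild type, against -0.17. In the longest class the median over all genes was 0.10 in 5XFAD and 0.15 in wild type. Per doubling of length the log2 fold change with age was higher by 0.077 over all genes and 0.039 over the members in 5XFAD, and by 0.091 and 0.034 in wild type.

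**Figure D4:**
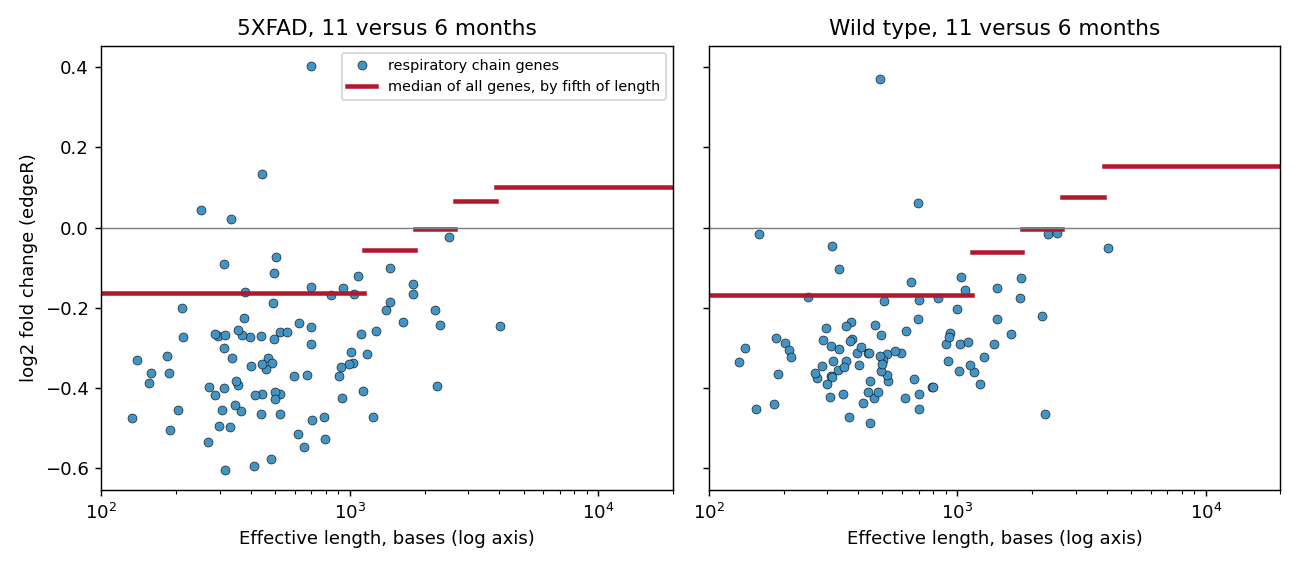
log2 fold change between 11 and 6 months (vertical axis, edgeR) against effective length in bases (horizontal axis, log scale) for the 95 tested members, in 5XFAD mice on the left and wild-type mice on the right; red lines are medians of all genes in 5 length classes. The members cluster in the shortest class and most lie below its all-gene median of -0.16 in 5XFAD and -0.17 in wild type.

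The trend was also there between single libraries. The slope of log2 CPM, relative to the mean of the 13 libraries, per doubling of length over all genes was 0.00096, 0.040 and 0.011 in 5XFAD at 11 months and -0.058, -0.045 and -0.076 in 5XFAD at 6 months. It was 0.016, 0.077 and 0.11 in wild type at 11 months and -0.040, 0.013, -0.025 and -0.026 in wild type at 6 months. Wild-type replicate 1 at 11 months, whose members were nearest to the 6-month level, also had the lowest slope of its group. Replicates 1 and 3 of 5XFAD at 11 months had lower slopes than this library, and their members were lower too. The members' median log2 CPM, relative to the mean of the 13 libraries, was -0.10 and -0.14 there, against -0.032. The part of the slope in the members' level was not tested. With a smooth length trend removed from each library, the members' median was -0.21 in 5XFAD, against -0.060 for all genes, with 13 members called, and -0.17 in wild type, against -0.017, with 0 called. The 13 are Atp5g3, Cox5a, Cox7b, Ndufaf3, Ndufb2, Ndufb3, Ndufs3, Ndufs4, Ndufs6, Ndufs7, Sdhaf1, Sdhb and Uqcrfs1, all of them among the 36. The part of RNA quality or library preparation in the trend was not tested.

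Between genotypes few members passed. At 6 months 0 of 95 members were called, against 1.32% of all genes (231 genes), and DESeq2 called 0 members. By edgeR 5 of the 95 members had an unadjusted p under 0.05, against 1589 of all 17483 genes. The members' median log2 fold change was 0.070, and -0.073 on log2 TPM, where the median of all genes was -0.11. At 11 months 1 member was called, Cox6a2, against 4.31% of all genes in either direction (753 genes) and 3.8% higher. There 7 of the 95 members had an unadjusted p under 0.05 by edgeR, against 2757 of all 17483 genes. The members' median was 0.059, and -0.082 on log2 TPM, where that of all genes was -0.12, so the sign of both medians depends on the scaling. The 11-month median also depends on single libraries: it was -0.026 when wild-type replicate 2 was left out, 0.030 without 5XFAD replicate 1, and 0.14 with wild-type replicate 1 left out. In that last fit 23 members had an unadjusted p under 0.05 by edgeR, and the number over all genes was not counted. The 6-month median was 0.032 without 5XFAD replicate 1.

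Cox6a2, the heart and muscle form of a complex IV subunit, which has also been reported in parvalbumin interneurons of the mouse brain, was higher in 5XFAD mice at 11 months. It had 9.87, 13.3 and 10.1 CPM in 5XFAD, against 7.29, 5.13 and 5.58 CPM in wild type, without overlap, as in 10.4% of all genes in that direction. The log2 fold change was 0.89 ± 0.18 (edgeR adjusted p = 0.0106), and it ranged from 0.73 to 1.05 over the alternatives, with an adjusted p of 0.0614 when only the 11-month libraries were fitted. At 6 months Cox6a2 had 10.3, 10.8 and 9.17 CPM in 5XFAD, against 7.37, 6.30, 9.35 and 6.78 CPM in wild type, and its log2 fold change of 0.44 ± 0.17 did not pass (edgeR adjusted p = 0.417). The genotype effect was not shown to differ between ages (interaction 0.45, edgeR adjusted p = 0.9995). Pvalb, the marker of parvalbumin interneurons, had 45.7, 44.2 and 37.0 CPM in 5XFAD at 11 months, against 80.6, 43.8 and 23.3 CPM in wild type, which overlap. The gene lies on chromosome 7 from 128205435 to 128206387 (GRCm38, minus strand).

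As a share of the Cox6a pair in TPM, Cox6a2 was 1.73% ± 0.37 in 5XFAD at 11 months and 1.61% ± 0.19 at 6 months (SD, n = 3 each), and 1.103% ± 0.249 in wild type at 11 months (SD, n = 3) and 1.25% ± 0.15 at 6 months (SD, n = 4). Cox4i2, the form of Cox4 known from lung and induced by low oxygen, had 1.21, 1.81 and 1.20 CPM in 5XFAD at 11 months, against 2.31, 2.26 and 1.96 CPM in wild type. The groups did not overlap, as in 8.76% of all genes in that direction, and its log2 fold change of -0.63 ± 0.26 did not pass (edgeR adjusted p = 0.245). Its share of the Cox4 pair was 0.228% ± 0.064 in 5XFAD at 11 months, against 0.392% ± 0.011 in wild type (SD, n = 3 each). Cox5a was the member with the next smallest p at 11 months: its 3 5XFAD libraries lay below the 3 wild-type libraries, and the log2 fold change of -0.36 ± 0.10 did not pass (edgeR adjusted p = 0.0769), while it passed without wild-type replicate 2 (edgeR adjusted p = 0.00394), with length offsets (edgeR adjusted p = 0.0154) and by DESeq2 (adjusted p = 0.032).

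The other isoform pairs with a rare form had these shares. In TPM, Cox7a1 was 1.36% to 3.10% of its pair with Cox7a2 over the 13 libraries, Cox6b2 0.558% to 1.33% of its pair with Cox6b1 and Ndufa4l2 0.320% to 1.08% of its pair with Ndufa4. Ndufb4 took 10.6% to 13.9% of the summed TPM of itself and Ndufb4c, its processed pseudogene copy, which lies within Mroh5 on the same strand of chromosome 15. The counting may have split reads between the 2, so the level and the age values of both are uncertain. In the edgeR model of 13 libraries Ndufb4c was not called in any comparison, and Ndufb4 was called lower with age in wild type. Ndufb4c was called with age in wild type by DESeq2, with no filter and without wild-type replicate 1 at 11 months. In 5XFAD it was called with only the groups compared and without wild-type replicate 2 at 11 months. Cox7b2 and Cox8b were too low to test, with at most 0.381 and 1.23 CPM in any library.

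The subunits encoded by mitochondrial DNA had no called age change. Of the 13 protein genes 0 were called in any comparison. Over all genes 2.39% were called lower and 4.84% higher with age in 5XFAD, and 1.29% and 2.42% in wild type. Between genotypes 1.32% of all genes were called at 6 months and 4.31% at 11 months. With 13 genes, 0 calls do not set these subunits apart from such shares. Their median log2 fold change was 0.082 in 5XFAD with age (9 of 13 positive) and 0.20 in wild type with age (13 of 13 positive). Between genotypes the median was 0.33 at 6 months (13 of 13 positive) and 0.14 at 11 months (12 of 13 positive). They took 65875 to 105834 CPM in the wild-type libraries at 11 months, a wider range than in any other group.

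Other nuclear mitochondrial genes were taken from lists chosen with earlier results of these data known. Over all genes 2.39% were called lower and 4.84% higher with age in 5XFAD, and 1.29% and 2.42% in wild type. Of 39 tested assembly factors outside the symbol pattern, 9 fell with age in 5XFAD, with a median of -0.24, and 2 fell in wild type, with a median of -0.18. The 2 of smallest p in 5XFAD were Coa7 at -0.60 ± 0.12 and Cox16 at -0.52 ± 0.11, both factors of complex IV assembly (edgeR adjusted p = 0.0132 and 0.0144). Of 21 genes of cytochrome c, coenzyme Q synthesis and mitochondrial carriers 2 fell in each genotype, with medians of -0.19 in 5XFAD and -0.18 in wild type. Of 17 genes of the citric acid cycle and pyruvate dehydrogenase 2 fell in 5XFAD and 1 in wild type, with medians of -0.20 and -0.14. Of 15 regulators of respiratory gene expression 0 were called in either, with medians of 0.045 and 0.13. With 15 genes, 0 calls do not set the regulators apart from all genes.

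Markers of other cells had these values with age. Of all genes 4.84% were called higher with age in 5XFAD and 2.42% in wild type. Endothelial markers had medians of 0.87 in 5XFAD and 0.88 in wild type, with 4 and 5 of 6 higher, and their summed level was 143 to 179.7 CPM in 5XFAD at 11 months against 92.3 to 104 CPM at 6 months, and 165 to 261 CPM in wild type at 11 months against 102 to 134 CPM at 6 months. Astrocyte markers had medians of 0.52 in both genotypes, with 3 and 2 of 6 higher, and microglial markers of 1.02 and 0.49, with 7 and 0 of 8 higher. Mural cell markers had medians of 0.57 and 0.48, with 3 and 1 of 9 higher, and markers of oligodendrocyte precursors of 0.37 and 0.58, with 1 and 3 of 3 higher. Red blood cell markers had medians of 0.78 and 0.83, with 0 of 5 called.

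Oligodendrocyte, inhibitory neuron and striatal markers had negative medians with age in both genotypes, with no gene called. Of all genes 2.39% were called lower with age in 5XFAD and 1.29% in wild type. Oligodendrocyte markers had medians of -0.36 in 5XFAD and -0.13 in wild type, with 6 of 6 values negative in both. They summed to 7188 to 10842 CPM in 5XFAD at 11 months, against 9681 to 11803 CPM at 6 months, and to 5650.0 to 9894 CPM in wild type at 11 months, against 6450.2 to 13743 CPM at 6 months, with overlap in both. Inhibitory neuron markers had medians of -0.30 and -0.12, with 5 and 4 of 6 negative. They summed to 594 to 699 CPM in 5XFAD at 11 months, against 721 to 903 CPM at 6 months, without overlap, and to 569.9 to 1338 CPM in wild type at 11 months, against 910.2 to 1169 CPM at 6 months, with overlap. Excitatory neuron markers had medians of 0.0077 and -0.12, with 0 of 6 called. Striatal markers, which a cortical dissection can include, had medians of -1.26 and -0.89 with 0 of 6 called. They summed to 644, 711 and 279 CPM in 5XFAD at 11 months, against 1474, 1682 and 540.2 CPM at 6 months, and to 451, 267 and 2270.0 CPM in wild type at 11 months, against 2022, 1230.4, 2862 and 1165 CPM at 6 months.

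The members' level (median log2 CPM relative to the mean of the 13 libraries), in the same order of replicates, was -0.10, -0.18 and -0.14 in 5XFAD at 11 months, against 0.25, 0.15 and 0.15 at 6 months, and -0.032, -0.36 and -0.24 in wild type at 11 months, against 0.13, 0.057, 0.12 and 0.14 at 6 months. Wild-type replicate 2 at 11 months had the lowest value of the 13 libraries on both measures. Wild-type replicate 3 had the highest striatal sum at 11 months and the second lowest member level of the 13. The part of these cell markers in the members' age change was not tested. Choroid plexus markers were high in wild-type replicate 1 at 6 months alone, with 2972 CPM, against 5.13 to 38.1 CPM in the other libraries.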

How the data were processed

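Gene expression of 13 frontal cortex libraries was analysed from the authors' deposited gene tables. Per the submitters' processing notes, STAR 2.7.1 and RSEM were used with GRCm38. Not given in the sources used here are the annotation, the strand setting and the RSEM version. The deposited expected counts, which share reads among near copies, were the main unit: 21 of the 97 members had a count that was not whole (tolerance 0.005) in at least 1 library, and 44 members overlap another gene, 13 of them on the same strand. The deposited TPM values, scaled by the authors' length estimates, were used for levels between genes and for alternatives. The deposited effective length and length (other values, in bases) were used for the length trend. All 55536 identifiers matched GENCODE M21, which gave symbols and coordinates. The members and lists were chosen with earlier results of these data known.

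Counts were rounded, filtered by filterByExpr (minimum count 10, minimum total 15) and scaled by TMM, and a single model of 4 groups on the 13 libraries was fitted with edgeR 4.0.16 (robust quasi-likelihood test, R 4.3.3). Adjusted p-values are Benjamini-Hochberg over 17483 genes with a threshold of 0.05. The ± beside a log2 fold change is the standard error, the absolute value divided by the square root of the F statistic, and other ± values are SD. The script was tested on simulated data. No library pair was identical within sampling noise over the 78 pairs. Alternatives were DESeq2 1.42.0, other size factors, no filter, limma 3.58.1 on log2 TPM (pseudocounts 1 and 0.1), a smooth length offset in each library (6 degrees of freedom), sex as a term, only the groups compared, and leaving out each library. Members were named by rule: those past the threshold (up to 8 a direction), the 2 of smallest p and highest TPM in each complex, isoform sets and complex II. Some of these are given only in counts, and Ndufs3 and Ndufs7 were added after their values were seen. Cox4i1, Cox6a1 and Cox8a were grouped after their values were seen. RefSeq promoter windows came from a GRCm38.p6 table.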

Additional observations from a re-analysis of the deposited data

Results flagged for a closer look

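Among 57 values over the 4 wild-type libraries at 6 months, 5 had 1 library far from the other 3, where chance gives about 1 in 20. Atp5h, a stalk subunit of complex V, had 239 CPM in replicate 2 and 252 to 255 CPM in the others. Ndufa2, an accessory subunit of complex I, had 81.0 CPM in replicate 2 and 97.9 to 99.7 CPM in the others. The median log2 level of complex I was 0.055 in replicate 2 and 0.16 to 0.17 in the others. Sdhd had 78.1 CPM in replicate 1 and 89.4 to 91.1 CPM in the others. Cox6b2, a form of Cox6b known from testis, had 2.38 CPM in replicate 1 and 1.23 to 1.32 CPM in the others; this replicate also held the high choroid plexus markers, and their part in its value was not tested. The other groups have 3 libraries and were not examined in this way.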

How the results depend on the processing

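No paired analysis was possible because the replicate numbers are in accession order and pair no libraries. At 6 months between genotypes DESeq2 called 384 of all genes. There the members' median turned to -0.073 on both TPM scales (pseudocounts 1 and 0.1), where that of all genes was -0.11 and -0.13. With length offsets it turned to -0.026, where that of all genes was -0.013. Single members reversed at 6 months: Sdhb (-0.045 and -0.045), Sdhd (-0.086 and -0.087), Cox6c (-0.010 and -0.010) and Atp5s (-0.0090 and -0.0092) on the 2 TPM scales, and Uqcr10 (-0.0075) and Cox6c (-0.0084) with length offsets. At 11 months between genotypes the members called were 3 by DESeq2, 2 with length offsets and 0 with only the groups compared, where 443 of all genes were called. The members' median turned to -0.082 on both TPM scales, where that of all genes was -0.12 and -0.15. With length offsets it turned to -0.067, where that of all genes was -0.061. Sdhc (-0.13 and -0.13) and Uqcrq (-0.018 and -0.018) reversed on the TPM scales, Uqcrq also with length offsets (-0.0079). With age in 5XFAD the members called were 7 and 7 on the TPM scales, 13 with length offsets and 63 with only the groups compared. Of all genes DESeq2 called 2063, the TPM scales 825 and 686, and only the groups compared 2610. The median with length offsets was -0.21. With age in wild type the members called were 59 by DESeq2, 0 and 0 on the TPM scales, 0 with length offsets, 6 with sex as a term and 0 with only the groups compared. Of all genes these called 1843, 296, 215, 14, 345 and 1, and the median with length offsets was -0.17. The change of the genotype effect called 30 of all genes by DESeq2 and 4 on log2(TPM + 1), and its value for Sdhb ran from -0.15 to 0.026 over the leave-outs of 1 library, the highest without wild-type replicate 1 at 11 months. Leaving out 1 library at a time, the members called with age ran from 0 to 50 in 5XFAD and 0 to 68 in wild type, and those of all genes from 97 to 1801 and 0 to 1921. The wild-type median ran from -0.40 to -0.24. Between genotypes 1 to 3 members and 424 to 840 of all genes were called at 11 months, 134 to 269 of all genes at 6 months, and 1 to 3 of all genes for the change of the genotype effect. Each of the 13 leave-outs moved the wild-type age count of members by more than 1.5 times: it was 0, 1, 2, 4, 8, 9 or 68. Fewer libraries leave fewer degrees of freedom for the shared spread. The part of this in the moves, and any other cause of them, was not tested.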
